A study of Mus musculus with 96 samples.

Results

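The 6 genes followed here bring fat into a cell or act on it once inside, and were measured in 2 tissues of each mouse, islets and liver: Cd36, Fabp4, Lpl, Vldlr, Mogat1 and Pparg. They are 6 of the 21990 genes in the table that the authors deposited, of which 20155 have values, and they were taken by symbol. Cd36 and Mogat1 were chosen by their repeated rise in liver on the high-fat diet, so the levels of these 2 genes in liver are given below as a description, with no test of diet, week or tissue. The other 4 were taken as genes of the same pathway, with earlier results of these data known, and the study itself names Cd36 and Pparg in islets, so their results are not independent evidence. The mice were male C57BL/6N, bought at 4 weeks of age and fed either a high-fat diet (HFD, Research Diets D12492, 60% fat) or a chow diet (CD, LabDiet, 13.5% fat), and no engineered allele is named for any group. Groups of 4 mice per diet were taken after 4, 8, 12, 16, 20 and 24 weeks of diet, and each of the 48 mice gave 1 islet and 1 liver library, so that there are 96 libraries in 24 groups. The chow is a grain-based diet and D12492 a purified one, so the fat content and the other ingredients cannot be told apart. Week also stands for the age of the mice and for the time of collection, which cannot be told apart either.

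As background, the cells of most tissues take up fat by 2 routes. Fatty acids bound to albumin cross the membrane with the help of CD36 and are carried in the cytosol by fatty acid binding proteins such as FABP4, which is best known from fat cells, macrophages and capillary endothelium. Triglyceride in lipoproteins is first split by lipoprotein lipase (LPL) at the capillary wall, and the VLDL receptor (VLDLR) binds the particles there. Inside the cell, monoacylglycerol acyltransferase 1 (MOGAT1) joins a fatty acid to monoacylglycerol on the way to triglyceride. PPARG, a nuclear receptor that binds fatty acids and pairs with RXR, is the main regulator of fat cell formation, and Cd36, Lpl and Fabp4 are among its textbook target genes. Normal mouse liver has little Pparg, Lpl and Mogat1, and fatty liver in obese mice is known for more of Pparg, Cd36 and Mogat1.

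On GRCm38, the build of the table, Cd36 lies at chr5:17781690-17888959 on the minus strand, Fabp4 at chr3:10204342-10208602 (minus), Lpl at chr8:68880555-68906932 (plus), Vldlr at chr19:27216489-27254231 (plus), Mogat1 at chr1:78511060-78606964 (plus) and Pparg at chr6:115336457-115490404 (plus). The Pparg entry begins upstream of the RefSeq gene (115360879) and lists 18 transcripts, 7 of them under the sequencing provider's own identifiers, and the table gives 1 value per gene, so the forms of PPARG cannot be told apart here. PPARG with RXR is known to bind 2 copies of the hexamer AGGTCA with 1 base between them. The promoter windows of the 3 genes whose liver values moved most closely together, Cd36, Mogat1 and Pparg, are therefore shown as RefSeq gives them for GRCm38.p6, each from 250 bases before a transcription start to 50 after it, read 5′ to 3′ on the strand of the gene, with AGGTCA on either strand in capitals. They are the windows chr5:17835847-17836146 (Cd36, minus strand), chr1:78510810-78511109 (Mogat1, plus), and chr6:115360894-115361193, chr6:115362099-115362398 and chr6:115421816-115422115 (Pparg, windows 1 to 3, plus):
Cd36: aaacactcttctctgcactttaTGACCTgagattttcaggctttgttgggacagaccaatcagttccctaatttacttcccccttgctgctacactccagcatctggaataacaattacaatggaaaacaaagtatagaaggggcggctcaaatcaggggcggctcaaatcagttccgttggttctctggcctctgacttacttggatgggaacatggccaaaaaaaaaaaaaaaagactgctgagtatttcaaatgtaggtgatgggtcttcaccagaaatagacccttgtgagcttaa
Mogat1: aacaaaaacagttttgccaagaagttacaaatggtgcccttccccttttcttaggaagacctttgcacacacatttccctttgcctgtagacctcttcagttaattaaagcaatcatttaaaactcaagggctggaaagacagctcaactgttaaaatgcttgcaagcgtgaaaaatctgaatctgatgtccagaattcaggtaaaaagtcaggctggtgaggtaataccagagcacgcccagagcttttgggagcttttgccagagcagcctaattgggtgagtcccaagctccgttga
Pparg window 1: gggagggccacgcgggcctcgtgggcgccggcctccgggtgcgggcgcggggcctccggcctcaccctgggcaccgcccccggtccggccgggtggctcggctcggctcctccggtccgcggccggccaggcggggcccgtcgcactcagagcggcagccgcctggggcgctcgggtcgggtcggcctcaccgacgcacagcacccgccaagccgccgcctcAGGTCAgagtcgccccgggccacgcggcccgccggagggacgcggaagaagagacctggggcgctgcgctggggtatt
Pparg window 2: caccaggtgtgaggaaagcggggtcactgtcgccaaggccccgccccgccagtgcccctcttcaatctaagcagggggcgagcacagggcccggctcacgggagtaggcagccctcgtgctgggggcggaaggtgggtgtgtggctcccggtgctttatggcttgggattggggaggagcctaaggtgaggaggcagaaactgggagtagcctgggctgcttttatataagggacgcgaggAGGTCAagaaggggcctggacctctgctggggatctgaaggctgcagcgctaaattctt
Pparg window 3: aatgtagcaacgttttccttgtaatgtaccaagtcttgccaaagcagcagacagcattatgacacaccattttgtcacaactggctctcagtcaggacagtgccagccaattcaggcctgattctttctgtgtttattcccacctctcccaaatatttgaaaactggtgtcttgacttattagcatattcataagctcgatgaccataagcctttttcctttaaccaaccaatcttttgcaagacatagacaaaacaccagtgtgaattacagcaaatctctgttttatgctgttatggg
The Cd36 window holds the hexamer once on the opposite strand, where it reads tgacct, 228 bases before the start. Windows 1 and 2 of Pparg hold it once each on the strand of the gene, 28 and 9 bases before the start. The windows of Mogat1, Pparg window 3 and the 2 windows of Vldlr do not hold it, and of all 32851 windows 16.3% do. The full repeat, 2 copies of the hexamer with any 1 base between them, searched on both strands, was in none of the 7 windows of these 4 genes and in 13 of the 32851 (0.0396%). A match of 6 letters is a description and no binding site.

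Expression is given as fragments per kilobase of transcript and library size (FPKM), so that levels can be set against each other. Depth per library is unknown from the table, which holds no counts, so no counting interval can be given, and 2 decimals limit values under 1 FPKM. The tissues matched their labels: the summed level of 8 hepatocyte markers was 39070 to 82925 FPKM in the liver libraries and 253.1 to 1067 in islets, and that of 9 islet endocrine markers was 588598 to 1008737 FPKM in islets and 32.8 to 3803 in liver. In islets nearly all of the hepatocyte sum was Ttr (mean 819.0 FPKM on CD and 591.4 on HFD). In liver Slc2a2 had a mean of 88.9 FPKM on CD and 101.9 on HFD, beside a median endocrine sum of 125.0 and 118.9. Neither range is thus a measure of carry-over alone. The highest values of endocrine markers in liver came from CD306 (week 12) and CD407 (week 16, 2626 FPKM), and results were also computed without these 2 libraries. Exocrine carry-over differed widely between islet libraries, with a sum of 8 acinar markers between 2937 and 88006 FPKM, although islets were picked by hand. Within each group the libraries of a tissue correlated with each other, each at a mean Pearson r of at least 0.986 over genes, and none of the 4560 pairs of libraries held the same value in every gene. Means below are given ± SD over 4 mice. Since these are bulk samples, fewer cells of a type and less RNA per cell cannot be told apart.

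Cd36, the fatty acid transporter, had the highest mean level of the 6 in HFD liver over the weeks (59.0 FPKM, against 22.8 for Fabp4). At week 4 the 4 HFD livers had 5.04, 4.94, 7.17 and 4.97 FPKM and the 4 CD livers 3.7, 2.29, 2.42 and 2.61. Week 8 gave 95.7, 91.4, 83.97 and 32.8 FPKM on HFD, where HFD217 is the low one, and 9.55, 8.54, 6 and 2.97 on CD. At week 12 the values were 76.2, 63.8, 32.1 and 74.9 on HFD and 8.92, 23.8, 15.6 and 10.3 on CD. The groups did not overlap at any of the 6 weeks, and the HFD values went from at most 7.17 FPKM at week 4 to at least 32.8 at week 8. Livers of week 16 had 85.7, 89.5, 73.97 and 84.2 FPKM on HFD and 25.4, 25.3, 7.28 and 15.3 on CD. At week 20 they had 89.7, 58.1, 87.6 and 38.7 on HFD against 11.8, 6.65, 5.94 and 8.93 on CD. The last week gave 49.05, 70.03, 78.96 and 38.6 on HFD and 13.3, 22.6, 24.01 and 20.3 on CD. The ratio of HFD to CD means was 2.01, 11.2, 4.22, 4.56, 8.23 and 2.95 from the first to the last week. The CD mean moved as well, from 2.75 ± 0.644 FPKM at week 4 to 20.1 ± 4.74 at week 24, so the smaller ratio of week 24 came with a higher CD level beside an HFD mean of 59.2 ± 18.6.

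**Figure D1:**
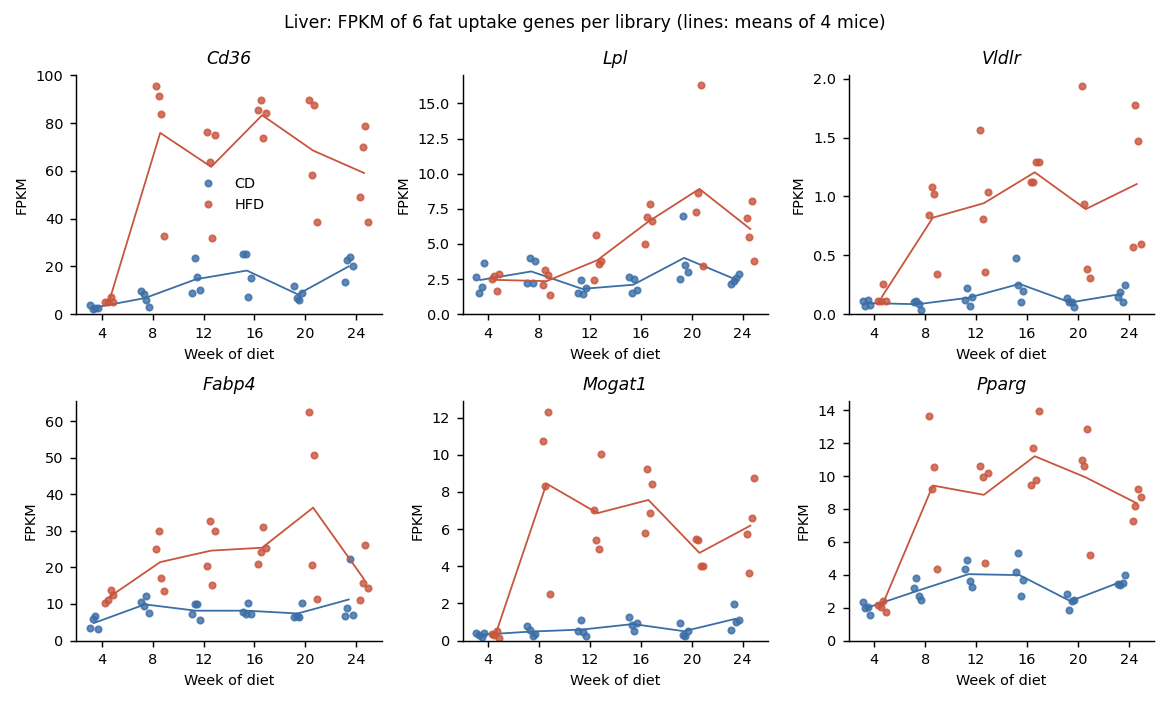
FPKM (linear axis) of the 6 genes in liver by week of diet, 1 point per library, with 4 CD (blue) and 4 HFD (red) mice per week and lines through the means. Cd36 lies higher in all HFD than in all CD livers at every week, Mogat1 from week 8 on, and Lpl separates at weeks 12, 16 and 24.

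Fabp4, the cytosolic binding protein, already lay apart by diet at week 4, when the HFD livers had 10.2, 11.2, 13.8 and 12.5 FPKM and the CD livers 3.33, 5.85, 6.82 and 3.2. Week 8 gave 25.1, 30.1, 17.1 and 13.5 on HFD and 10.5, 9.39, 12.3 and 7.4 on CD. At week 12 the HFD livers had 20.3, 32.8, 15.3 and 30.1 FPKM and the CD livers 7.13, 9.92, 10.03 and 5.59. These groups lay apart in all 3 weeks, and the CD mean was 4.80, 9.89 and 8.17 FPKM in turn. At week 16 the HFD values were 20.99, 24.1, 31.1 and 25.4 and those on CD 7.89, 7.24, 10.3 and 7.25. The widest spread was at week 20, with 62.6, 20.6, 50.9 and 11.4 FPKM on HFD and 6.32, 6.74, 6.34 and 10.2 on CD. At week 24, 11.2, 15.6, 26.03 and 14.3 on HFD overlapped with 6.74, 8.95, 22.3 and 6.96 on CD, through the value of CD606. The difference of the mean log2(FPKM + 1) was 1.199 ± 0.21 (SE) in week 4, with an adjusted p of 0.0775 over all genes, and passed the threshold of 0.05 in the next 3 weeks. These gave 1.00 ± 0.24 with an adjusted p of 0.043 in week 8, 1.45 ± 0.26 with an adjusted p of 0.0154 in week 12 and 1.53 ± 0.14 with an adjusted p of 0.000228 in week 16. Week 20 gave 1.89 ± 0.50 with an adjusted p of 0.105, and passed without HFD518 (2.33, adjusted p = 0.0138) and where all 12 liver groups shared 1 fit (adjusted p = 0.000409). Week 24 gave 0.64 ± 0.37 with an adjusted p of 0.462. The call of week 8 was lost with any single library left out except HFD217 (adjusted p up to 0.114), with no filter on low values (0.07), with median ratio scaling (0.0512) and in the shared fit (0.0793).

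Lpl, the lipase, was low in liver, and its groups lay apart at weeks 12, 16 and 24. At week 4 the values were 2.53, 2.75, 1.67 and 2.83 FPKM on HFD and 2.63, 1.49, 1.95 and 3.68 on CD, and at week 8 they were 2.11, 3.16, 2.77 and 1.37 on HFD and 2.24, 3.97, 2.21 and 3.76 on CD. At week 12 the HFD livers were higher, with 2.44, 5.61, 3.6 and 3.76 on HFD against 1.48, 2.41, 1.44 and 1.89 FPKM on CD. Week 16 gave 4.98, 6.95, 7.85 and 6.6 on HFD and 2.64, 1.54, 2.48 and 1.73 on CD. Thus the groups overlapped at weeks 4 and 8 and not at weeks 12 and 16. Week 20 gave 7.27, 8.64, 16.3 and 3.46 on HFD and 2.52, 7.01, 3.5 and 3.01 on CD, where HFD518 lay among the CD values and CD502 above the rest of its group. At week 24 the HFD livers had 6.87, 5.5, 8.08 and 3.79 FPKM and the CD livers 2.17, 2.38, 2.59 and 2.83. On the log2(FPKM + 1) scale Lpl was higher on HFD in week 12, by 0.77 ± 0.19 with an adjusted p of 0.0347. Week 16 gave 1.30 ± 0.15 with an adjusted p of 0.00111, and week 24 0.98 ± 0.18 with an adjusted p of 0.0387. Not past the threshold were weeks 4 (0.03 ± 0.20 with an adjusted p of 0.956), 8 (-0.27 ± 0.21 with an adjusted p of 0.496) and 20 (0.90 ± 0.41 with an adjusted p of 0.353). The call of week 12 was lost without any one of CD307, CD308, HFD315, HFD316 and HFD318 (adjusted p up to 0.106), and that of week 24 without any one of its libraries except HFD614 and HFD617 (adjusted p up to 0.146). With no filter on low values both were lost (adjusted p = 0.0582 and 0.0734), week 12 also with median ratio scaling (0.0523), and in the shared fit of 12 groups week 20 passed (adjusted p = 0.027).

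Vldlr, the lipoprotein receptor, was the lowest member in liver. No CD liver exceeded 0.48 FPKM, and 11 of the 24 HFD livers reached 1 FPKM. At week 4 the HFD livers had 0.11, 0.11, 0.26 and 0.11 FPKM and the CD livers 0.11, 0.07, 0.12 and 0.08. Week 8 gave 0.84, 1.08, 1.02 and 0.34 on HFD and 0.1, 0.11, 0.09 and 0.04 on CD, and week 12 gave 1.56, 0.81, 0.36 and 1.04 on HFD and 0.12, 0.22, 0.07 and 0.15 on CD. From week 8 on, every HFD liver lay above every CD liver of its week. Values at week 16 were 1.12, 1.12, 1.29 and 1.29 on HFD and 0.48, 0.25, 0.1 and 0.2 on CD. At week 20 they were 1.94, 0.94, 0.38 and 0.31 on HFD and 0.14, 0.1, 0.1 and 0.06 on CD, and at week 24 they were 0.57, 1.78, 1.47 and 0.6 on HFD and 0.15, 0.19, 0.1 and 0.25 on CD. The ratio of the means lay between 4.68 (week 16) and 9.65 (week 8) after week 4. Vldlr passed the filter on low values (at least 1 FPKM in at least 4 libraries of a fit) only through its HFD libraries, so no test is given on its liver values alone.

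Mogat1, the acyltransferase, moved from near the limit of the table to a clear level. At week 4 the HFD livers had 0.36, 0.32, 0.5 and 0.16 FPKM and the CD livers 0.39, 0.31, 0.17 and 0.38, which overlapped. Week 8 gave 10.7, 8.3, 12.3 and 2.48 on HFD, with HFD217 again the low one, and 0.8, 0.55, 0.25 and 0.33 on CD. At week 12 the values were 7.04, 5.4, 4.95 and 10.1 on HFD and 0.53, 1.1, 0.47 and 0.27 on CD. Unlike Cd36, Mogat1 thus showed nothing at week 4 that set the diets apart. Week 16 gave 5.78, 9.21, 6.87 and 8.42 on HFD and 1.25, 0.86, 0.51 and 0.93 on CD. At week 20 the HFD livers had 5.45, 5.4, 4 and 4.03 FPKM and the CD livers 0.92, 0.31, 0.27 and 0.51. Week 24 ended with 5.76, 3.65, 6.6 and 8.74 on HFD and 0.59, 1.95, 0.99 and 1.13 on CD. The ratio of HFD to CD means was 1.07, 17.5, 11.6, 8.53, 9.39 and 5.31 from the first to the last week, on CD means of 0.313 to 1.17 FPKM.

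Pparg, the nuclear receptor, did not differ detectably at week 4, with 2.16, 2.05, 2.43 and 1.71 FPKM on HFD and 2.36, 1.98, 2.06 and 1.53 on CD (difference 0.05 ± 0.12, adjusted p = 0.851). Week 8 gave 13.6, 9.19, 10.5 and 4.35 on HFD and 3.19, 3.79, 2.68 and 2.44 on CD. At week 12 the values were 10.6, 9.94, 4.69 and 10.2 on HFD and 4.37, 4.91, 3.6 and 3.26 on CD. HFD217 at week 8 and HFD316 at week 12 lay near the CD range, and HFD316 within it. At week 16 the HFD livers had 9.45, 11.7, 9.73 and 13.9 FPKM and the CD livers 4.18, 5.35, 2.71 and 3.67. Week 20 gave 10.99, 10.6, 12.8 and 5.22 on HFD and 2.85, 1.84, 2.43 and 2.46 on CD, and week 24 gave 7.29, 8.18, 9.22 and 8.7 on HFD and 3.41, 3.39, 3.51 and 4.01 on CD. The groups were apart in these 3 weeks. Pparg was higher on HFD in every week from 8 to 24. The difference was 1.29 ± 0.28 with an adjusted p of 0.0305 in week 8, 0.93 ± 0.23 with an adjusted p of 0.0354 in week 12 and 1.31 ± 0.17 with an adjusted p of 0.00227 in week 16. Week 20 gave 1.63 ± 0.23 with an adjusted p of 0.00936, and week 24 gave 1.03 ± 0.10 with an adjusted p of 0.00253. The calls of weeks 16, 20 and 24 held with each library left out in turn. That of week 8 was lost with any library left out but HFD217 (adjusted p up to 0.0909), and that of week 12 with any left out but CD304 and HFD316 (adjusted p up to 0.105), and with no filter (0.0551).

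Over the 3 liver members with a test, Pparg, Lpl and Fabp4, 11 of 18 tests passed, all higher on HFD. At week 4 none of the 3 passed in limma (1 of 3 at an unadjusted p under 0.05, and 0 of 3 also without the trend and robust variances), where 0.0506% of all genes tested were called. Pparg and Fabp4 passed at week 8, against 7.49% of all genes. All 3 did so at week 12 (10.6% of all genes) and at week 16 (7.43%). Pparg passed alone at week 20 (2.47%), and Pparg and Lpl at week 24 (0.837%). These shares are of genes called in either direction. HFD values lay wholly above CD values for 2 of the 6 members at week 4, Cd36 and Fabp4, as for 5.85% of the genes tested. The number was 5 of 6 at week 8 (11.4% of genes), 5 of 6 at week 12 (14.6%), 6 of 6 at week 16 (11.9%), 5 of 6 at week 20 (6.58%) and 5 of 6 at week 24 (8.14%). Nothing is read from these counts for Cd36 and Mogat1, since the same values chose them, and Mogat1 from week 8 and Vldlr at week 16 passed the filter only through HFD libraries. Vldlr at the other weeks and Mogat1 at week 4 did not pass it, so they are not among the genes behind the shares, and counts and shares are not alike. Among Pparg, Lpl and Fabp4, Fabp4 lay apart at week 4, Pparg and Fabp4 at weeks 8 and 20, and Lpl and Fabp4 at week 12. All 3 did at week 16, and Pparg and Lpl at week 24.

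In a fit of all 48 livers, the mean difference over the 6 weeks was 1.04 ± 0.09 for Pparg (adjusted p = 1.03e-11), 1.28 ± 0.14 for Fabp4 (adjusted p = 4.58e-09) and 0.62 ± 0.11 for Lpl (adjusted p = 2.07e-05). Of all genes, 35.8% were called higher and 6.78% lower on HFD in this fit (3892 and 738 genes), and with median ratio scaling between libraries 2115 were higher and 2000 lower. The 3 members were called higher under both scalings. The difference changed between weeks for Pparg (adjusted p = 0.0292), as for 1.46% of all genes, but Pparg missed the threshold without any one of 6 week 4 libraries (CD101, CD103, CD104, HFD112, HFD113 and HFD118, adjusted p up to 0.0757). Lpl (adjusted p = 0.061) and Fabp4 (adjusted p = 0.565) did not pass. Lpl passed there without any one of CD304, CD502, HFD411, HFD517, HFD518 and HFD617, with an adjusted p of 0.0102 without HFD518.

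Markers of other cell types moved with diet in the same livers, in the fit that called 35.8% of all genes higher and 6.78% lower. Of the 8 hepatocyte markers, 3 were called lower (Tat, Fgb and Cps1, by -0.54, -0.40 and -0.31) and none higher. The summed level of 9 macrophage markers was 57.0 to 184.0 FPKM (median 101.7) on CD and 66.3 to 262.1 (median 141.4) on HFD, and 6 of the 9 were called higher on HFD, Vsig4 not with median ratio scaling (adjusted p = 0.139). Of 4 markers of lipid-associated macrophages, Trem2 and Spp1 were called higher (Spp1 not with median ratio scaling, adjusted p = 0.0949) and Cd9 was not, while Gpnmb, which passed the filter through HFD libraries alone, is given by its level (at most 0.45 FPKM on CD and 15.6 on HFD). Their sum reached 267.4 FPKM in 1 HFD liver against at most 63.3 on CD. Of 8 endothelial markers 1 (Plvap) was higher, with sums of 25.0 to 72.9 FPKM on CD and 32.4 to 84.1 on HFD, and of 6 stromal markers 5 were higher, with sums of 28.6 to 90.0 on CD and 49.7 to 148.8 on HFD. Of 7 adipocyte markers, Adipoq, Plin1, Lep and Retn were under 0.1 FPKM on average on both diets, with Lep at 0 in every liver. Cfd, which passed the filter through HFD libraries alone, had a mean of 0.630 FPKM on CD and 8.69 on HFD. Adrb3 was called higher on HFD in limma (0.34 ± 0.09, adjusted p = 0.00322) and Lipe was not (0.23 ± 0.11, adjusted p = 0.0884). The sum of the 7 had a median of 9.19 FPKM on CD and 18.6 on HFD. With the summed macrophage markers as a covariate, chosen after seeing the data, the mean difference was 0.97 for Pparg, 1.096 for Fabp4 and 0.53 for Lpl. The values were 0.95, 1.06 and 0.63 with endothelial markers and 0.93, 1.11 and 0.42 with lipid-associated macrophage markers, and all 9 stayed past the threshold (adjusted p up to 0.0026). The stromal sum was not used as a covariate, so its part in these differences was not tested. With group means subtracted, Lpl had r = 0.64 with the sum of lipid-associated macrophage markers over the 48 livers, and Fabp4 had r = 0.54 with the endothelial sum, both as descriptions. With the stromal sum, r was 0.52 for Fabp4, 0.50 for Vldlr, 0.48 for Pparg, 0.33 for Cd36, 0.31 for Lpl and 0.18 for Mogat1. Most of the lipid-associated macrophage sum was Spp1 (mean 23.4 FPKM on CD and 36.8 on HFD, at most 218.3) and Cd9 (11.2 and 10.7). Its highest value, 267.4, was in an HFD liver of week 20, the group that also held the highest Lpl value (16.3 in HFD517). The r of Lpl with this sum was not computed without that liver.

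**Figure D2:**
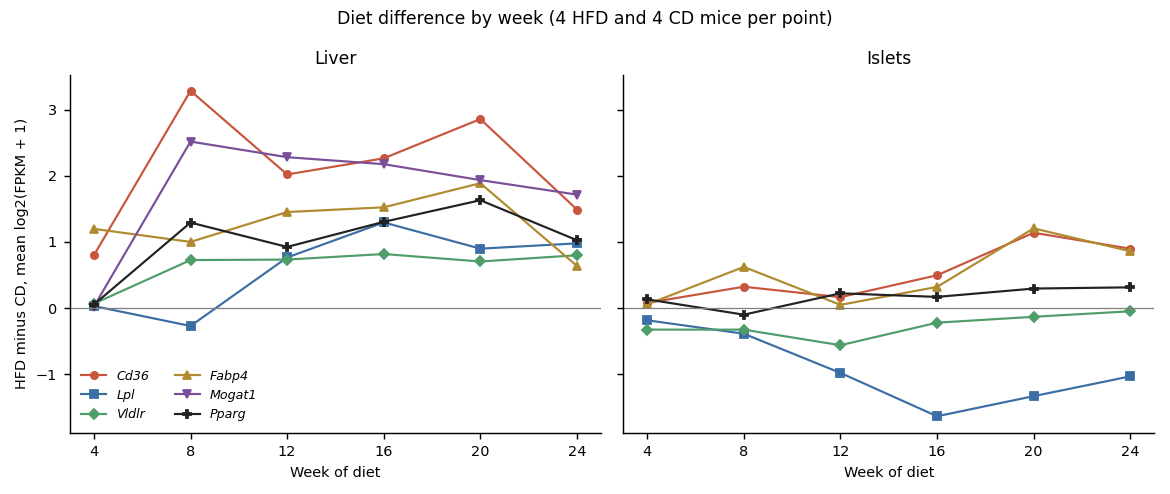
Difference of the group means of log2(FPKM + 1), HFD minus CD, by week in liver (left, 6 genes) and islets (right, 5 genes, Mogat1 being at 0 in nearly all libraries), with 4 against 4 mice per point. In liver most lines rise between weeks 4 and 8 and Lpl rises from week 12, while in islets Lpl goes down to -1.64 at week 16 and Cd36 and Fabp4 lie above 0 at weeks 20 and 24.

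In islets the members did not move in 1 direction. Over all weeks Lpl and Vldlr were lower on HFD, Cd36, Fabp4 and Pparg were higher, and Mogat1 was not expressed at a level the table can show. At week 4 none of the 5 members tested was called (1 of 5, Vldlr, at an unadjusted p under 0.05, and none without the trend and robust variances), as for 0% of all genes, where limma called 0 of 11569 with 854 at an unadjusted p under 0.05.

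Lpl had the highest mean CD level of the 6 in islets at weeks 4, 8 and 20. At week 4 the HFD islets had 20.7, 18.6, 21.4 and 24.7 FPKM and the CD islets 24.7, 21.9, 21.97 and 29.4. Week 8 gave 13.04, 20.2, 18.9 and 23.96 on HFD and 19.5, 36.2, 23.1 and 22.7 on CD. At week 12, 7.7, 10.3, 5.52 and 9.42 on HFD stood against 17.6, 18.4, 16.9 and 14.7 on CD. The groups overlapped in the first 2 of these weeks and parted at the third. Week 16 gave 5.56, 4.97, 7.61 and 7.54 on HFD and 25.7, 17.98, 23.8 and 20.6 on CD. At week 20 the values were 18.1, 6.27, 3.43 and 5.54 on HFD, with HFD511 inside the CD range, and 23.6, 18.7, 21.4 and 14.1 on CD. The last week gave 3.74, 7.14, 4.88 and 11.6 on HFD and 16.9, 13.1, 13.3 and 12.98 on CD. The HFD mean was 0.487 of the CD mean at week 12 and 0.291 at week 16. On the log2(FPKM + 1) scale, Lpl fell by 0.98 ± 0.14 in week 12, with an adjusted p of 0.000237. In week 16 it fell by 1.64 ± 0.14, with an adjusted p of 8.45e-05. Week 20 gave -1.34 ± 0.41 with an adjusted p of 0.0975, which passed without HFD511 (-1.76, adjusted p = 0.00349). Week 24 gave -1.04 ± 0.31 with an adjusted p of 0.0977, which passed without HFD617 (-1.30, adjusted p = 0.00081). Where all 12 islet groups shared 1 fit, weeks 20 and 24 both passed (adjusted p = 0.00142 and 0.0101), and week 24 also did without the trend and robust variances (adjusted p = 0.0233).

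**Figure D3:**
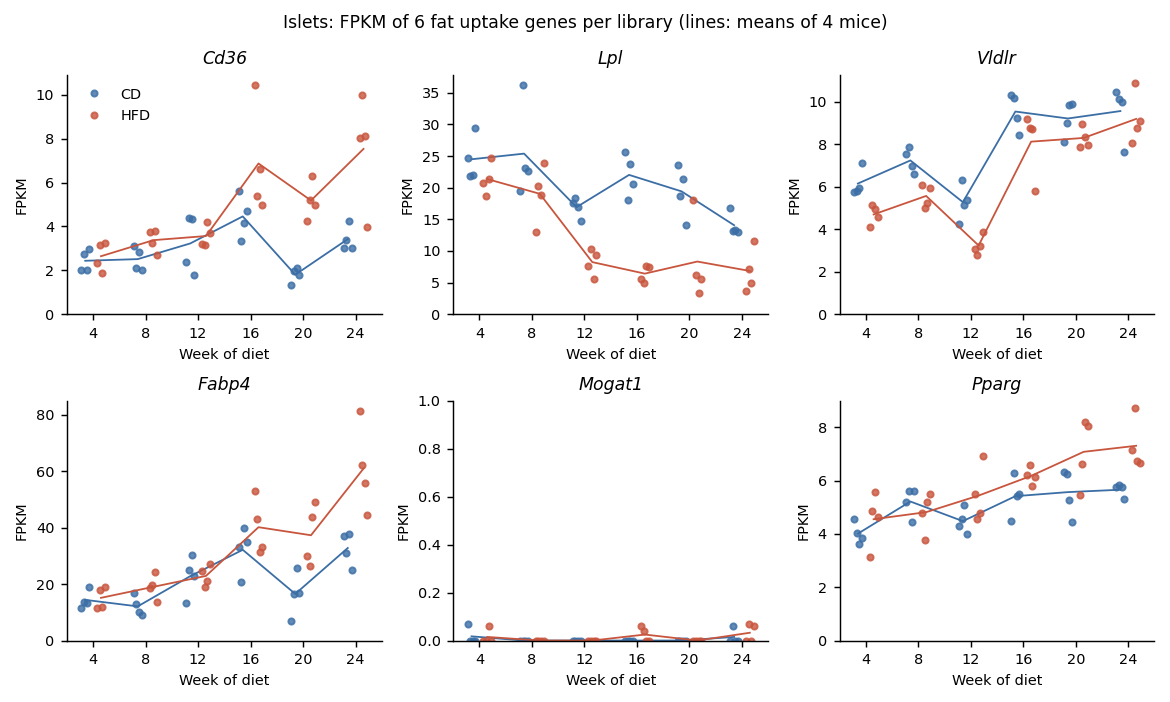
FPKM (linear axis) of the 6 genes in islets by week of diet, 1 point per library, with 4 CD (blue) and 4 HFD (red) mice per week and lines through the means. Lpl lies lower on HFD from week 12 apart from HFD511 at week 20, Fabp4 lies wholly higher at weeks 20 and 24 and Cd36 at week 20, and Mogat1 stays at or below 0.07 FPKM.

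Vldlr, at weeks 8 and 12, was called lower on HFD in islets. At week 4 the HFD islets had 4.12, 5.13, 4.96 and 4.58 FPKM and the CD islets 5.75, 5.78, 5.96 and 7.12, which did not overlap (difference -0.33 ± 0.09, adjusted p = 0.6). Week 8 gave 6.07, 5, 5.25 and 5.96 on HFD and 7.54, 7.86, 6.96 and 6.6 on CD, and week 12 gave 3.08, 2.79, 3.21 and 3.86 on HFD and 4.25, 6.32, 5.14 and 5.4 on CD. Vldlr fell by 0.33 ± 0.08 in week 8, with an adjusted p of 0.0414. The groups did not overlap in either week. In week 12 it fell by 0.56 ± 0.12, with an adjusted p of 0.00582. The call of week 8 was lost without any one of 7 of its 8 libraries (adjusted p up to 0.104), and also when insulin was taken out of the islet total (adjusted p = 0.109), with no filter (0.0742), with median ratio scaling (0.11) and without the trend and robust variances (0.0525). Its groups overlapped at weeks 16, 20 and 24, with HFD means of 8.12 ± 1.56, 8.3 ± 0.488 and 9.2 ± 1.21 FPKM beside CD means of 9.54 ± 0.879, 9.21 ± 0.845 and 9.56 ± 1.31.

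Cd36 was low in islets and was called higher on HFD than on CD at week 20. Week 16 gave 10.5, 5.41, 6.62 and 4.99 FPKM on HFD and 5.61, 3.36, 4.18 and 4.69 on CD. At week 20 the HFD islets had 4.24, 5.2, 6.32 and 4.98 and the CD islets 1.33, 1.99, 2.11 and 1.78. Week 24 gave 8.04, 10, 8.13 and 3.98 on HFD and 3.04, 3.4, 4.25 and 3.01 on CD. The groups were apart at week 20 and, but for HFD617, at week 24. From week 16 to week 20 the CD mean went from 4.46 to 1.80 FPKM and the HFD mean from 6.87 to 5.185, so the gap of week 20 came with a lower CD level. Week 20 differed by 1.14 ± 0.12 with an adjusted p of 0.00148. Week 24 differed by 0.90 ± 0.24 with an adjusted p of 0.062, where it passed without HFD617 (1.14, adjusted p = 1.25e-05), in the shared fit (0.00187), without the trend and robust variances (0.0205) and with insulin left out of the total (0.045). At weeks 4, 8, 12 and 16 it was 0.08, 0.32, 0.16 and 0.50 and did not pass (adjusted p = 0.9, 0.117, 0.757 and 0.227), though at week 16 it did with insulin left out of the islet total (0.64, adjusted p = 0.0406).

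Fabp4 in islets was highest on HFD at week 24. At week 20 the HFD islets had 29.9, 26.6, 43.7 and 49.2 FPKM and the CD islets 7.09, 16.6, 25.7 and 16.7. Week 24 gave 81.3, 62.4, 55.8 and 44.5 on HFD and 37.2, 31.1, 37.9 and 25.1 on CD. In both weeks all HFD islets lay above all CD islets. From week 16 to week 20 the CD mean went from 32.2 to 16.5 FPKM and the HFD mean from 40.2 to 37.3. The difference passed at week 24 (0.86 ± 0.20, adjusted p = 0.0425), a call lost without any one of 6 of the 8 libraries (adjusted p up to 0.126) and with median ratio scaling (0.058). It was 1.21 ± 0.36 at week 20 (adjusted p = 0.092), which passed in the shared fit (adjusted p = 0.00406). At weeks 4, 8, 12 and 16 it was 0.05, 0.62, 0.05 and 0.32 (adjusted p = 0.952, 0.125, 0.951 and 0.51), and at week 8 it passed without HFD217 (0.77, adjusted p = 0.044).

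Pparg varied little in islets, between 3.13 and 8.72 FPKM over all 48 libraries. At week 24 the HFD islets had 7.14, 8.72, 6.73 and 6.66 FPKM and the CD islets 5.76, 5.84, 5.75 and 5.3, and the difference was 0.31 ± 0.09 (adjusted p = 0.0481). That call was lost without any one of the 8 libraries (adjusted p up to 0.169), with no filter (0.0677), with median ratio scaling (0.14), in the shared fit (0.081) and without the trend and robust variances (0.0551). At the other weeks, in order from 4 to 20, the difference was 0.13, -0.10, 0.22, 0.17 and 0.29, with overlapping groups and none past the threshold. It passed at week 20 without HFD511 (0.40, adjusted p = 0.0431), and with insulin left out of the total at weeks 12 (0.41, adjusted p = 0.0175) and 16 (0.30, adjusted p = 0.0306). Mogat1 was listed at 0 in 22 of 24 CD and 19 of 24 HFD islet libraries and at 0.07 FPKM at most, so it was not tested and no ratio is given.

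Of 30 tests of these 5 members in islets, 7 passed. Vldlr alone passed at week 8, when 5.27% of all genes were called, Lpl and Vldlr at week 12 (4.53%), Lpl at week 16 (8.45%), Cd36 at week 20 (4.74%), and Pparg and Fabp4 at week 24 (8.30%). Over all 6 weeks, the mean difference was 0.52 ± 0.08 for Cd36 (adjusted p = 3.98e-06), 0.52 ± 0.11 for Fabp4 (adjusted p = 0.000455), 0.17 ± 0.05 for Pparg (adjusted p = 0.00554), -0.27 ± 0.04 for Vldlr (adjusted p = 3.97e-06) and -0.93 ± 0.11 for Lpl (adjusted p = 3.26e-08). So 3 were called higher and 2 lower, in a fit that called 16.6% of all genes higher and 22.0% lower (2060 and 2722). With Ins1 and Ins2, which took 23.5% to 39.1% of each islet library, left out of the total, 5322 genes were called higher and 1555 lower, and the 5 members kept their direction and call. None of the 5 differed between weeks past the threshold in limma (adjusted p from 0.0572 for Cd36 to 0.425 for Pparg), with 4 of 5 at an unadjusted p under 0.05 and 0 of 5 also without the trend and robust variances, beside 4.25% of all genes. Cd36 passed there without any one of CD304, CD308, HFD411, HFD511 and HFD617 (adjusted p up to 0.0454). Without HFD617 both Cd36 (adjusted p = 0.00926) and Lpl (adjusted p = 0.045) passed there, and Lpl had an adjusted p of 0.00312 without HFD511.

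The make-up of the islet libraries moved with diet as well. The alpha cell hormone Gcg went from a mean of 11526 to 5320 FPKM (-1.57 ± 0.10, adjusted p = 1.69e-15) and the delta cell hormone Sst from 3438 to 1614 (-1.49 ± 0.09, adjusted p = 2.06e-15), and both differences changed between weeks (adjusted p = 3e-06 and 1.29e-05). Of the 9 endocrine markers, Gcg, Sst, Slc2a2 (-0.36) and Mafa (-0.30, with no call once insulin was left out, adjusted p = 0.109) were called lower, and Iapp (0.35), Ins1 (0.23) and Ins2 (0.19) higher, while Ttr, which is listed with the hepatocyte markers, was lower by -0.59. The part of these shifts in the values of Lpl and the other members was not tested. With group means subtracted, Lpl had r = 0.48 with the hepatocyte sum, which in islets is nearly all Ttr. It had r = 0.41 with the lipid-associated macrophage sum and -0.36 with the macrophage sum, all as descriptions. The 8 endothelial markers summed to 152.2 to 233.6 FPKM on CD and 159.2 to 242.4 on HFD, with 3 called higher (Esam, Cdh5 and Plvap) and 1 lower (Kdr), and 7 higher and none lower once insulin was left out of the total. After group means were subtracted, Cd36 had r = 0.55 and Fabp4 r = 0.45 with this sum, and Cd36 had r = 0.58 with the stromal sum, as descriptions over 48 libraries. With the adipocyte sum, which was 2.03 to 4.03 FPKM on CD and 2.57 to 4.53 on HFD, Cd36 had r = 0.59 and Fabp4 r = 0.68. Nearly all of this sum was Lipe (mean 2.82 FPKM on CD and 3.14 on HFD), so these r describe Lipe and not the adipocyte list as a whole. The 9 macrophage markers summed to 41.9 to 79.4 FPKM on CD and 37.7 to 113.5 on HFD, with Fabp4 at r = 0.45. Of 8 acinar markers, 2 were called lower on HFD (Cela2a, and Cpa1 with an adjusted p of 0.0518 once insulin was left out), and their sum had a median of 15125 FPKM on CD and 12483 on HFD. Adipoq, Plin1, Lep, Retn, Cfd and Adrb3 were under 0.1 FPKM on average. Lipe, the 1 adipocyte marker tested, was called higher on HFD in limma (0.12 ± 0.04, adjusted p = 0.0267). With the endothelial sum as a covariate, chosen after seeing the data, the mean differences were 0.44 for Cd36, 0.43 for Fabp4, 0.16 for Pparg, -0.29 for Vldlr and -0.92 for Lpl, and with the acinar sum 0.50, 0.52, 0.17, -0.29 and -0.86, all past the threshold (adjusted p up to 0.0125). Lpl had r = -0.06 with the endothelial and 0.28 with the acinar sum. The sums with which Lpl had its larger r were not used as covariates in islets.

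The 2 tissues could be set side by side because FPKM is a level per length, with the reservation that insulin transcripts take a large share of islet libraries. In CD mice the order of the mean levels in liver was Cd36 (11.8 FPKM), Fabp4 (8.28), Pparg (3.17), Lpl (2.65), Mogat1 (0.657) and Vldlr (0.142), and in islets Fabp4 (21.8), Lpl (20.4), Vldlr (7.83), Pparg (5.06), Cd36 (2.98) and Mogat1 (0.0054). In liver, the ranges of Cd36 (2.29 to 25.4) and Fabp4 (3.20 to 22.3) overlapped, as did those of Pparg (1.53 to 5.35) and Lpl (1.44 to 7.01). In islets, the ranges of Fabp4 (7.09 to 39.8) and Lpl (13.0 to 36.3) overlapped, as did those of Vldlr (4.25 to 10.5), Pparg (3.61 to 6.33) and Cd36 (1.33 to 5.61). For Cd36 these levels are a description, without a test. Lower in liver, on the log2(FPKM + 1) scale, were Pparg (-0.57 ± 0.05, adjusted p = 6.4e-14), Fabp4 (-1.24 ± 0.12, adjusted p = 3.15e-12) and Lpl (-2.57 ± 0.08, adjusted p = 2.32e-29). Of all genes, 95.4% differed between the tissues. Vldlr passed the filter only through islets and Mogat1 only through liver, so for these the levels alone are given, with Vldlr at 4.25 to 10.5 FPKM in CD islets and 0.04 to 0.48 in CD liver.

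The difference between diets was not the same in the 2 tissues. The mean difference between diets in liver minus that in islets was 1.54 ± 0.16 for Lpl (adjusted p = 6.49e-13), 0.91 ± 0.08 for Vldlr (adjusted p = 5.54e-15), 0.87 ± 0.10 for Pparg (adjusted p = 1.28e-10) and 0.77 ± 0.18 for Fabp4 (adjusted p = 0.000525). All 4 members tested were called, as were 43.9% of all genes. Vldlr was in this fit through its islet libraries, while no CD liver exceeded 0.48 FPKM. Its value ran from 0.85 to 2.08 over 7 other settings, so its size is not to be set against that of the other 3. Lpl was higher in HFD liver and lower in HFD islets, with calls in both tissues at weeks 12 and 16.

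On CD alone, levels were also read against weeks, as a slope of log2(FPKM + 1) per 4 weeks. No slope is given for Cd36 and Mogat1 in liver, whose CD values were used to choose them. Pparg, Lpl and Fabp4 had liver slopes of 0.07, 0.04 and 0.11 and did not pass (adjusted p = 0.208, 0.604 and 0.167). Of all genes, 14.9% passed in liver and 4.27% in islets. In islets the slope was 0.13 ± 0.03 for Vldlr (adjusted p = 0.0097), 0.07 ± 0.02 for Pparg (adjusted p = 0.035) and -0.13 ± 0.03 for Lpl (adjusted p = 0.0229). Vldlr did not rise steadily. Its CD mean went from 5.28 FPKM at week 12 to 9.54 at week 16, and its HFD mean from 3.235 to 8.125. The slope fit takes the CD mice as independent, although those of 1 week share its time of collection. The Pparg call was lost without any one of 7 libraries (CD103, CD104, CD106, CD501, CD502, CD601 and CD606, adjusted p up to 0.0839) and with insulin left out of the total (0.0607), and the Lpl call without CD106, CD606 or CD608 (adjusted p up to 0.0594). Fabp4, at 0.21 ± 0.07 (adjusted p = 0.0708), passed without CD501 (adjusted p = 0.0101).

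Mice of the same diet and week also differed from each other, and some members varied together. Deviations of log2(FPKM + 1) from the group means were correlated over the 48 mice, for 15 pairs in liver, 10 in islets and 5 genes between tissues, by permutation within groups (100000 draws, two-sided, adjusted over 30 relations). The p beside each rho was taken on ranks with group means subtracted again, so it is not that of the printed rho itself. Cd36 and Mogat1 were chosen on differences between group means, which are subtracted here, and for Vldlr in liver r is given alone. In liver 5 of the 10 pairs without Vldlr passed. Cd36 and Pparg were closest (Pearson r = 0.76, adjusted p = 0.0003 by permutation, Spearman rho = 0.72, adjusted p = 0.0003), followed by Mogat1 and Pparg (r = 0.65, adjusted p = 0.0005 by permutation, rho = 0.62, adjusted p = 0.0003). Cd36 also went with Mogat1 (r = 0.58, adjusted p = 0.00318 by permutation, rho = 0.58) and with Fabp4 (r = 0.49, adjusted p = 0.00795, rho = 0.46). Without the 2 mice farthest from the median, these 4 had r = 0.70, 0.52, 0.47 and 0.54 and still passed (adjusted p up to 0.0432). HFD217 was among the 2 left out in each of the 4. Pparg with Fabp4 passed by r (r = 0.47, adjusted p = 0.0381 by permutation) and not by rank (rho = 0.32, adjusted p = 0.149). It did not pass without HFD217 and HFD518 (r = 0.29, adjusted p = 0.274) nor with median ratio scaling (r = 0.37, adjusted p = 0.133). The call of this relation thus depended on the setting. By diet, r was 0.72 on CD and 0.86 on HFD for Cd36 with Pparg, and 0.51 and 0.69 for Mogat1 with Pparg. It was 0.74 on CD and 0.53 on HFD for Cd36 with Mogat1. For Cd36 with Fabp4 it was 0.19 on CD and 0.74 on HFD, and for Pparg with Fabp4 -0.0061 and 0.65. The difference of r between diets was not tested. The 5 pairs not past the threshold, 4 of them with Lpl, had r between 0.07 and 0.32 over both diets. Vldlr, at 0.48 FPKM or less in every CD liver, had r = 0.59 with Cd36 (rho = 0.59), 0.54 with Pparg (rho = 0.53), 0.39 with Fabp4 (rho = 0.22), 0.34 with Mogat1 (rho = 0.51) and 0.095 with Lpl (rho = 0.12).

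**Figure D4:**
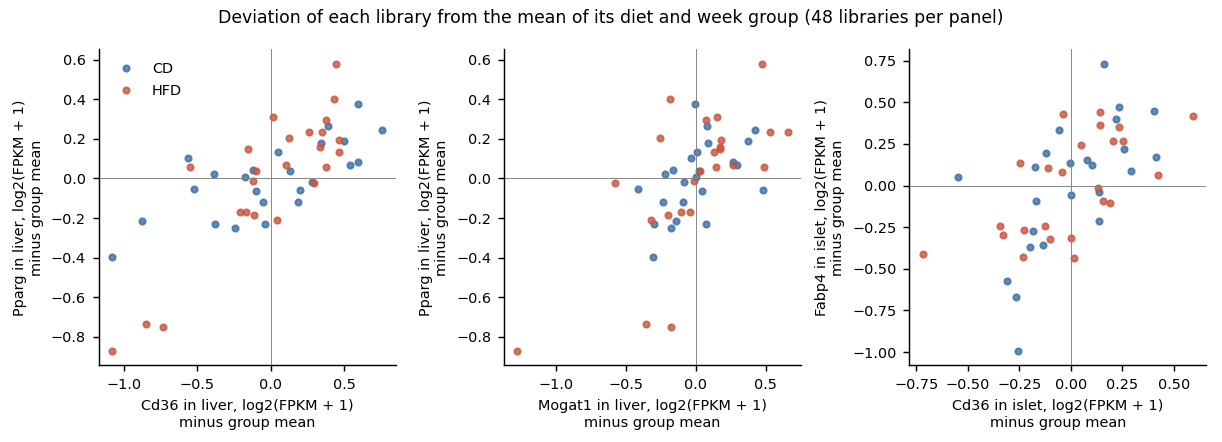
Each point is 1 library, placed by how far its log2(FPKM + 1) lies from the mean of its diet and week group: Pparg against Cd36 in liver, Pparg against Mogat1 in liver and Fabp4 against Cd36 in islets, with CD in blue and HFD in red. All 3 clouds rise, with r = 0.76, 0.65 and 0.60. In the Cd36 liver panel 3 HFD points at the lower left lie apart, and in the Mogat1 panel HFD217 lies farthest left.

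In islets 1 of 10 pairs passed, Cd36 with Fabp4 (r = 0.60, adjusted p = 0.0005 by permutation, rho = 0.65, adjusted p = 0.0003), and it did so without the 2 farthest mice (r = 0.58, adjusted p = 0.0036). It was similar on CD (r = 0.61) and HFD (r = 0.62). Between tissues of the same mouse 0 of 4 genes passed (0 of 4 also at an unadjusted p under 0.05), and r lay between -0.10 for Lpl and 0.26 for Cd36. What these mice share beyond diet and week, such as cage or day, was not tested.

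The genes whose pattern was most like that of a member were found by Pearson r of log2(FPKM + 1), over the 48 libraries of a tissue and again after group means were subtracted. In liver, the 5 nearest to Cd36 of 10878 genes were Pparg (r = 0.95), Aldh3a2 (0.93), Ermp1 (0.93), Clstn3 (0.93) and Hsd17b4 (0.93). With group means subtracted they were Acss3 (0.76), Pparg (0.76), Tmem64 (0.76), Lipa (0.75) and Abcd2 (0.74). Pparg was in both sets. The 5 nearest to Mogat1 were Lgals1 (0.96), Cidec (0.95), Cyp2b9 (0.95), Themis (0.94) and Osbpl3 (0.94), and within groups Lgals1 (0.77), Cidec (0.73), Sytl4 (0.70), Themis (0.70) and Nipsnap3b (0.69). Lgals1 went from a mean of 16.2 to 86.2 FPKM and Cyp2b9 from 1.41 to 66.9 between CD and HFD. For Pparg they were Cd36 (0.95), Osbpl3 (0.93), Mogat1 (0.93), Cidec (0.93) and Smpdl3a (0.92), and within groups Entpd5 (0.81), Apmap (0.80), Aplp2 (0.78), Sprr1a (0.77) and Dsp (0.76). In islets, the nearest to Cd36 of 12377 genes were Fabp4 (0.85), Gucy1b3 (0.84), Rapgef5 (0.84), Galnt15 (0.84) and Vstm2a (0.82), and within groups Parvb (0.74), Timp2 (0.71), Daam2 (0.70), Col4a1 (0.69) and C1qtnf1 (0.69). These r are descriptions, and over all 48 libraries they carry the difference between diets.

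The other genes of the pathway were read from 6 lists of 52 genes in all, by the mean difference between diets over the 6 weeks. Plin4, Plin2 in liver, Lipa in islets, Sort1, and the genes whose call changed with the scaling fall outside the rule for named genes and were picked after their values were seen. In liver the largest changes were in lipid droplet genes known as PPARG targets. Of 5 listed, Cidec, Plin4 and Plin2 were called higher. Cidec, which helps lipid droplets to fuse, went from a mean of 1.74 to 30.5 FPKM (3.10 ± 0.23, adjusted p = 2.1e-13). Plin4 was higher by 1.33 ± 0.15 (adjusted p = 6.98e-09), and Plin2, the coat protein of droplets in most cells, by 0.63 ± 0.14 (adjusted p = 0.000385). Cidea, a relative of Cidec, had 0.738 FPKM on CD and 30.6 on HFD, but passed the filter through HFD libraries alone, so no test is given, and Aqp7 was below the filter. The median of the 3 tested was 1.33, beside 0.08 over all genes, of which 35.8% were called higher. In islets Plin2 alone passed the filter and was higher by 0.32 ± 0.06 (adjusted p = 9.21e-05).

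Of 9 genes of fatty acid uptake and binding, all tested in liver, 4 were called higher, 3 lower and 2 did not pass, beside 35.8% and 6.78% of all genes, with a median of 0.14. The binding protein Fabp2 went from 52.9 to 111.1 FPKM (1.06 ± 0.11, adjusted p = 1.6e-09) and Fabp1, the main one of liver, from 4767 to 6284 FPKM (0.38 ± 0.11, adjusted p = 0.00552). Lower were Fabp5, from 15.2 to 6.70 FPKM (-0.73 ± 0.20, adjusted p = 0.00279), and Cav1, which forms caveolae, from 2.14 to 1.19 (-0.47 ± 0.11, adjusted p = 0.000468). Thus the binding proteins beside Fabp4 went in both directions. In islets 1 of 7 tested was called, Slc27a4, a fatty acid transport protein (0.13 ± 0.03, adjusted p = 0.000673).

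Of 11 partners and regulators of lipoprotein lipase and related lipases, 3 were called higher, 1 lower and 7 did not pass in liver, beside 35.8% of all genes higher and 6.78% lower. Apoc2, the cofactor of LPL, went from 275.0 to 456.6 FPKM (0.69 ± 0.09, adjusted p = 4.68e-08), Lipa, the lysosomal lipase, from 58.9 to 75.2 (0.33 ± 0.08, adjusted p = 0.00101) and Lipc, the hepatic lipase, from 69.5 to 58.2 (-0.26 ± 0.05, adjusted p = 0.000151). The median was 0.12, and with median ratio scaling 2 were higher and 3 lower, with Lmf1 losing its call and Apoc3 and Apoa5 gaining one as lower. In islets 3 of 6 tested were higher and none lower, beside 16.6% of all genes higher and 22.0% lower, with a median of 0.17 beside -0.01 for all genes. They were Gpihbp1, which holds LPL at the capillary wall (7.77 to 9.57 FPKM, 0.25 ± 0.07, adjusted p = 0.00268), Lmf1, which helps LPL to fold (10.8 to 12.4 FPKM, 0.19 ± 0.03, adjusted p = 2.37e-05), and Lipa (0.14 ± 0.04, adjusted p = 0.0112). The islet genes of this list that were called thus lay above CD where Lpl itself lay below.

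Of 6 lipoprotein receptors, none of the 5 tested in liver was called in limma, nor at an unadjusted p under 0.05, nor with median ratio scaling (median -0.01). In islets, beside the 16.6% and 22.0% of all genes, 1 was higher and 3 lower: Scarb1, the HDL receptor (10.4 to 12.7 FPKM, 0.24 ± 0.05, adjusted p = 4.92e-05), Lrp8, a relative of Vldlr (5.12 to 3.30 FPKM, -0.51 ± 0.06, adjusted p = 8.32e-09), Lrp1 (4.09 to 3.19 FPKM, -0.29 ± 0.06, adjusted p = 8.74e-05), and Sort1, which had no call once insulin was taken out (adjusted p = 0.411). Of 11 glycerolipid synthesis genes, 5 of 10 tested in liver were higher and none lower, beside 35.8% and 6.78% of all genes, with a median of 0.16, among them Gpam, the first enzyme of the pathway (24.9 to 35.2 FPKM, 0.44 ± 0.09, adjusted p = 0.000151), and Mgll, which splits monoacylglycerol (72.6 to 95.1 FPKM, 0.38 ± 0.09, adjusted p = 0.00103). With median ratio scaling 2 were higher and 1, Dgat1, lower. In islets 1 of 10 was higher (Agpat2, 0.12 ± 0.04, adjusted p = 0.0125) and 2 lower, Gpam (-0.16 ± 0.05, adjusted p = 0.011) and Mgll (-0.15 ± 0.04, adjusted p = 0.00461), both without a call once insulin was left out (adjusted p = 0.126 and 0.121), when 4 genes of the list were higher and none lower. Mogat2, the relative of Mogat1, was below the filter in both tissues.

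Of 10 genes for PPAR and RXR receptors and their coregulators, 4 were called higher in liver and none lower, a share near the 35.8% of all genes called higher, with a median of 0.08, the same as all genes. Ppara, the main PPAR of liver, went from 43.4 to 55.6 FPKM (0.35 ± 0.07, adjusted p = 0.000239), and the calls of Rxrg (0.17 ± 0.07, adjusted p = 0.0398), Ncoa1 and Ncor1 were lost with median ratio scaling (adjusted p = 0.234, 0.141 and 0.862), which left 1 of 10. In islets 2 of 6 tested were lower and none higher, beside 22.0% and 16.6% of all genes, the coactivator Ncoa1 (13.9 to 11.7 FPKM, -0.23 ± 0.04, adjusted p = 1.23e-05) and the corepressor Ncor1 (29.4 to 25.4 FPKM, -0.20 ± 0.04, adjusted p = 3.66e-05).

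**Figure D5:**
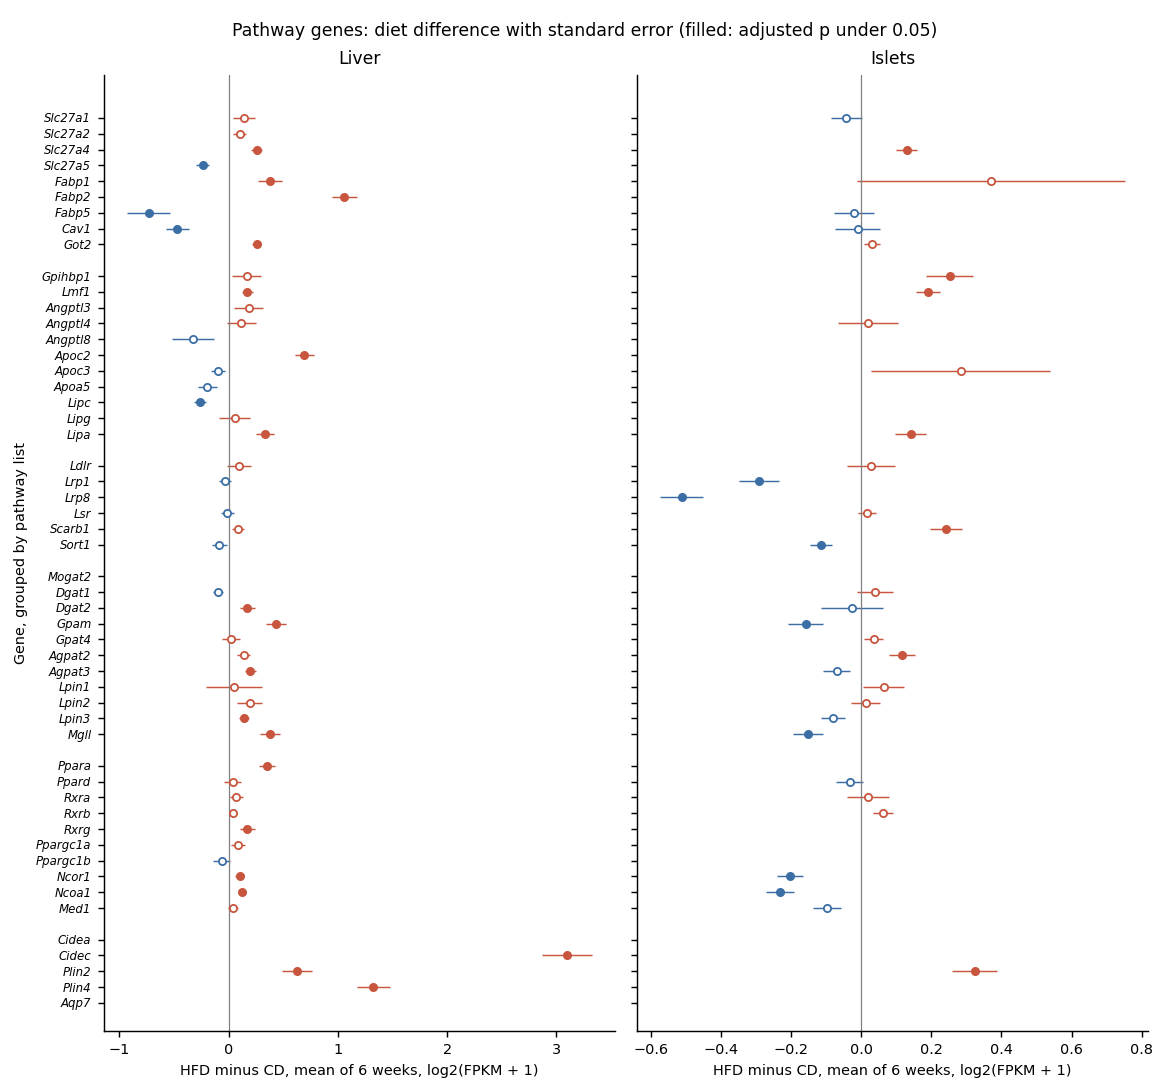
Mean difference between diets over 6 weeks (HFD minus CD, log2(FPKM + 1)) with its standard error for the 52 genes of the 6 pathway lists, in liver (left) and islets (right, with a narrower axis). Filled points passed at an adjusted p under 0.05, red is higher and blue lower on HFD, and genes that did not pass the filter in CD libraries alone are not drawn. Cidec lies farthest right in liver at 3.10, and Lrp8 farthest left in islets at -0.51.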

How the data were processed

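Islets and liver of 48 male C57BL/6N mice were sequenced by the study as poly(A) RNA on a BGISEQ-500, 1 library per mouse and tissue. The authors deposited 1 table with the gene level of each library in FPKM, to 2 decimals, and all 96 sample columns were used (0 left out). Per the labels, processing named HISAT2 2.0.4, Bowtie2 2.2.5, RSEM 1.1.12, DESeq2 and GRCm38.p5, with no role or order. Further columns hold the authors' group averages, network and time-course clusters, and fold changes, p-values and q-values of their comparisons (headed DEGseq), and none of these were used. The table holds no counts, so depth and counting error are unknown, and a count test foreseen for count data was replaced by limma. FPKM are shares of a library, so a change in very abundant transcripts such as insulin moves all other genes.

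Groups were tissue, diet and week as the labels give them, with 4 mice each. Values were taken as log2(FPKM + 1), genes needed at least 1 FPKM in at least 4 libraries of a fit (3 of 7 where a library was left out of a week), and limma 3.58.1 (R 4.3.3) with a variance trend and robust variances was fitted to all genes passing, with Benjamini-Hochberg adjustment over them and a call at an adjusted p under 0.05. Differences are on that scale, which understates changes of low genes. Fits covered each week, the mean of HFD minus CD over weeks, its change between weeks (F test), the slope over weeks in CD mice per 4 weeks, and tissue differences. Genes passing the filter in the libraries of just 1 diet were left out of list counts and medians, and the CD slopes and tissue difference of Cd36 and Mogat1, foreseen as tests, were dropped because their liver values chose them. Covariation used permutation within groups in numpy 2.4.6. Scripts were tested on simulated data. The members, gene lists and tests were chosen with earlier results of these data known. The named genes are the 6 members, up to 2 called genes with the largest and up to 2 with the smallest mean difference per pathway list and tissue, the 5 genes nearest to Cd36, Mogat1 and Pparg in liver and to Cd36 in islets, and marker genes. Where 2 rows shared a symbol, it went to the row whose gene ID carries it in RefSeq.

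Islets and liver of 1 mouse share an identifier, and their deviations from group means correlated over 11650 genes with a median r of 0.129 (-0.0813 to 0.263, above 0 in 43 of 48 mice). Alternatives were a pseudocount of 0.1, no filter, median ratio scaling, plain limma variances, 1 fit for all weeks, a log2 difference of at least 1, insulin left out of islet totals, the mouse as a block, each library left out in turn, and, chosen after seeing the data, the 2 livers high in endocrine transcripts left out and marker sums as covariates.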

Additional observations from a re-analysis of the deposited data

Results flagged for a closer look

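Dixon's test was applied to 132 sets of 4 libraries, each set being 1 gene in 1 group. The sets share mice, so they are not independent. In 10 of them a library lay far from the other 3, which chance alone gives in about 1 of 20 independent sets. In liver these were Cd36 in HFD114 at week 4 (7.17 FPKM, next value 5.04), Vldlr in the same liver (0.26 FPKM, next 0.11), Pparg in HFD316 at week 12 (4.69 FPKM, next 9.94), Fabp4 in CD507 at week 20 (10.22 FPKM, next 6.74) and Fabp4 in CD606 at week 24 (22.28 FPKM, next 8.95). In islets they were Pparg in CD608 at week 24 (5.3 FPKM, next 5.75), Vldlr in the same islets (7.63 FPKM, next 10.0), Lpl in CD601 at week 24 (16.86 FPKM, next 13.32), Vldlr in CD106 at week 4 (7.12 FPKM, next 5.96) and Vldlr in HFD418 at week 16 (5.81 FPKM, next 8.71).

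The mean difference between diets was not the same in liver and islets for all 4 members tested, with a liver minus islet value of 0.87 for Pparg, 1.54 for Lpl, 0.91 for Vldlr and 0.77 for Fabp4. That of Vldlr, which is very low in CD liver, ran from 0.85 to 2.08 over other settings. In liver the difference for Pparg also changed between weeks (adjusted p = 0.0292, limma F test). The cause of these differences was not tested.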

How the results depend on the processing

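Depth is unknown, each group holds 4 mice, and week cannot be told apart from age. Of the results for single genes, 520 of the recomputed values under other settings kept their direction and side of the threshold, 20 lost and 15 gained a call and 11 changed sign, and with 1 library left out the numbers were 1770, 68, 20 and 14. The mean difference between diets and both tissue comparisons kept all calls. Of the 11 liver calls by week, 7 were left with no filter, where more genes were tested (lost were Fabp4 at week 8, Pparg and Lpl at week 12 and Lpl at week 24), and 9 to 12 with 1 library left out. Of the 7 islet calls by week, 4 were left with median ratio scaling and 2 when a log2 difference of at least 1 was asked. In liver 1 member changed between weeks, 2 with median ratio scaling and 0 to 2 with 1 library left out. In islets it was 0, and 2 with insulin left out of the total, and 0 to 2 with 1 library left out. The CD slope was called for 0 of 3 members in liver under each alternative (0 also at an unadjusted p under 0.05 in limma) and for 3 in islets, with 1 to 3 where 1 library was left out. The other causes were not tested.

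With the mouse as a block, which pairs islets and liver, the values were the same and 3 of 3 members stayed called in the comparison of CD tissues and 4 of 4 in that of diet differences (Lpl 1.54 between tissues in the diet difference, adjusted p = 1.42e-09), so it changed no call. Small differences changed sign. At week 4 in liver, Pparg was -0.0167 and Lpl -0.0364 with median ratio scaling, and with 1 library left out they ran from -0.0245 to 0.11 and from -0.11 to 0.19. In islets, the values with 1 library left out ran from -0.0001 to 0.19 for Cd36 and -0.062 to 0.19 for Fabp4 at week 4, from -0.0179 to 0.30 for Cd36 and -0.17 to 0.20 for Fabp4 at week 12, and from -0.14 to 0.0057 for Vldlr at week 24. Correlations that changed sign with median ratio scaling were Mogat1 with Lpl (-0.0277) and Lpl with Vldlr (-0.0079) in liver, Cd36 with Pparg (-0.0789) and Pparg with Fabp4 (-0.0506) in islets, and Pparg between tissues (0.0551). Without the 2 farthest mice they were Mogat1 with Lpl (-0.0874) and Pparg with Lpl (-0.0275) in liver, Lpl with Vldlr in islets (0.0435) and Pparg between tissues (0.17). None of these had passed the test.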
